A study of Homo sapiens with 17 samples.

Results

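The messages of 9 replication-dependent histone genes were followed across 17 libraries of PC3M cells: HIST1H1C, HIST1H2AE, HIST1H2BD, HIST1H2BG, HIST1H2BK, HIST1H3D, HIST1H4C, HIST2H2AC and HIST2H2BE. PC3M is a metastatic human prostate cancer cell line derived from PC-3. The 9 genes were chosen by name, with earlier results of these libraries known, and are 9 of 14085 genes in the table of the MG132 experiment and of 13616 genes in that of the heat shock experiment. They are also the only genes, of 29 with a HIST symbol in the MG132 table, that passed the filter on low values there, and all but HIST1H2BG passed in the heat shock table. The choice does not record which values it rested on. Differences of the 9 genes between siJMJD6 and siNT cells, and between HSF1 knockout and siJMJD6 cells, are therefore described by their values. Any calls of these genes listed for these comparisons are not read as tests. In siJMJD6 cells of both experiments 7 of the genes had higher values than in siNT cells, and HIST1H4C and HIST2H2AC had lower ones.

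The MG132 experiment held 4 groups of 2 libraries. These were cells given an siRNA against JMJD6 (siJMJD6) and MG132, cells labelled HSF1 KO and given MG132, cells given a non-targeting siRNA (siNT) and MG132, and siNT cells given DMSO, the solvent. MG132, a proteasome inhibitor, was used at 2.5 µM for 4 h. The heat shock experiment held 3 groups of 3 libraries, namely siJMJD6 cells after 1 h at 42 °C and 2 h of recovery, siNT cells after the same heat shock, and siNT cells labelled basal. Transfection preceded treatment by 72 h. The labels name no siRNA for the HSF1 KO cells, do not say whether their libraries A and B (replicates 1 and 2 here) are separate clones, and do not say whether replicates were separate cultures. P-values therefore reflect how far these libraries differ from each other, a spread that may be technical. No library combined siJMJD6 with DMSO or with unheated cells, so an effect of siJMJD6 without stress was not measured. HSF1 KO cells may also differ from siNT and siJMJD6 cells in having had no transfection. Loss of HSF1 and a lack of transfection cannot be told apart in these comparisons. No HSF1 KO library was given DMSO.

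Histone proteins package DNA, with H2A, H2B, H3 and H4 forming the nucleosome core and H1 binding the linker. Replication-dependent histone genes are switched on in S phase, and most of their messages end without a poly(A) tail, in a stem-loop that is bound by SLBP and cut with the help of the U7 snRNP. A minority of their messages are instead cut downstream and polyadenylated, which has been described in differentiating, resting and senescent cells. QuantSeq FWD, the library kit used here, primes on poly(A) and reads 1 tag near the 3′ end of each message, so values for these genes count polyadenylated messages or messages primed at internal runs of A, and miss the stem-loop ends. The libraries do not show which 3′ end each tag came from, so the polyadenylation of the 9 genes was not tested.

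Stem-loops were read from the GENCODE 29 transcripts to show where the usual histone 3′ end lies within each annotated message. A hairpin of 6 paired bases and a 4-base loop was found after the coding part in transcripts of 4 genes, printed 5′ to 3′ with the hairpin in capitals.
HIST1H2AE-201: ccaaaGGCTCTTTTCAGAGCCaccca
HIST1H2BD-202: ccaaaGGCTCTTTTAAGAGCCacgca
HIST1H2BG-201: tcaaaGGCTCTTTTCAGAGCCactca
HIST2H2BE-201: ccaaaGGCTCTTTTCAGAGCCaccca
The hairpin letters are the same in HIST1H2AE, HIST1H2BG and HIST2H2BE. The GENCODE 29 transcripts run on for 51 bases after the hairpin in HIST1H2AE, 39 in HIST1H2BD-202, 1059 in HIST1H2BG and 1729 in HIST2H2BE. RefSeq places some gene ends elsewhere. On the minus strand of chromosome 6, HIST1H2BG ends at 26216200 in RefSeq, against 26215159 in GENCODE 29. HIST1H2BK ends at 27138293 in RefSeq, against 27146418 in GENCODE 29. A polyadenylation signal AATAAA is followed by 21 bases to the end of HIST1H2BD-202 and by 18 bases to the end of HIST2H2BE-201. The second HIST1H2BD transcript, HIST1H2BD-201, has 2 exons and 789 bases, holds no such hairpin, and has an AATAAA followed by 19 bases. Annotated transcripts of HIST1H1C, HIST1H2BK, HIST1H3D and HIST2H2AC stop at the stop codon, so their hairpins could not be looked for. That of HIST1H4C runs 51 bases past its stop codon, and no such hairpin was found in it.

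**Figure D1:**
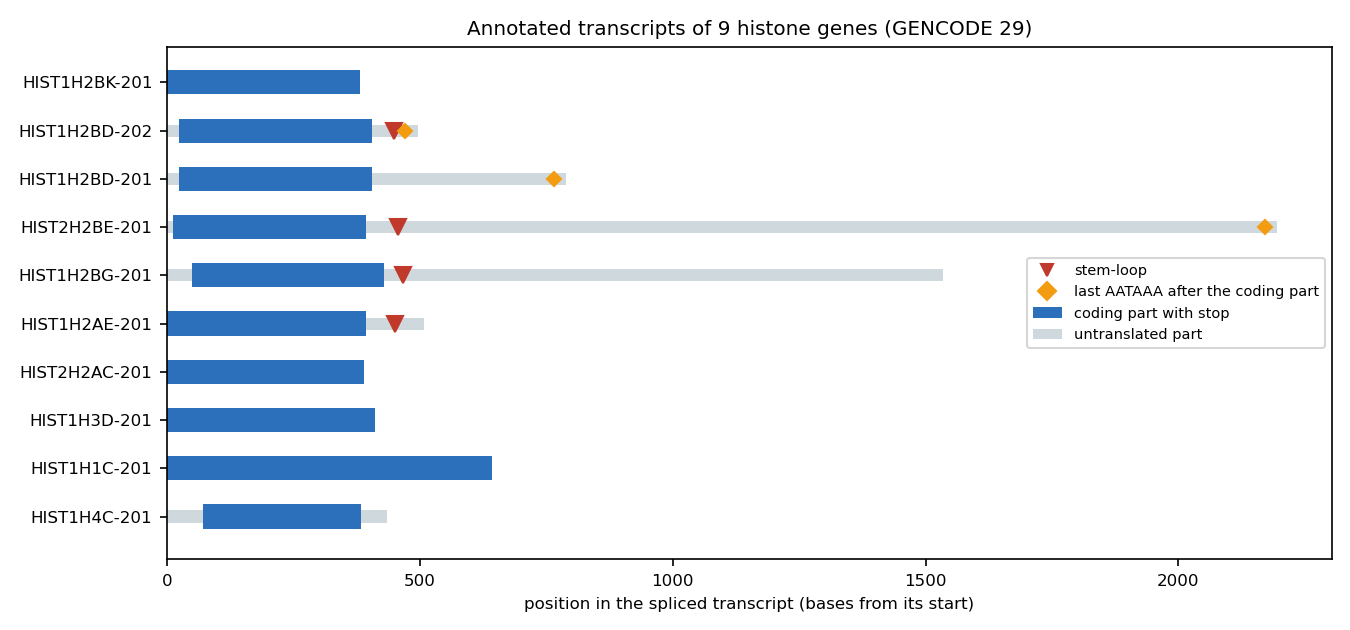
Annotated GENCODE 29 transcripts of the 9 genes, drawn to scale in bases from the transcript start, with the coding part, the untranslated parts, the stem-loop and the last AATAAA after the coding part. HIST2H2BE-201 and HIST1H2BG-201 extend 1729 and 1059 bases past the stem-loop, and HIST1H2BD-201 has an AATAAA but no stem-loop.

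In GRCh38 coordinates, 7 of the genes lie on chromosome 6 and 2 on chromosome 1. HIST1H2BK is at chr6:27146418-27146798 (minus strand), HIST1H2BD at chr6:26158146-26171349 (plus strand) and HIST1H3D at chr6:26196840-26197250 (minus strand). HIST1H1C is at chr6:26055787-26056428 (minus strand) and HIST1H4C at chr6:26103876-26104310 (plus strand). A pair of H2B and H2A genes on each chromosome is divergent and shares the region between its starts. HIST1H2BG at chr6:26215159-26216692 (minus strand) and HIST1H2AE at chr6:26216975-26217483 (plus strand) have 282 bases between them. HIST2H2BE at chr1:149884459-149886652 (minus strand) and HIST2H2AC at chr1:149886975-149887364 (plus strand) have 322 bases between them.

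The bases before the start of each gene are shown for the H2B genes, because the divergent pairs share them, and the pairs differ in how their 2 genes compare between siJMJD6 and siNT cells. They are 250 bases 5′ to 3′ on the gene's strand from RefSeq, build GRCh38.p14, with matches on both strands to the octamer ATTTGCAT, the TATA box TATAAA and the CCAAT box CCAAT in capitals. HIST1H2BG is at chr6:26216689-26216938 and HIST2H2BE at chr1:149886683-149886932, both on the minus strand. HIST1H2BK is at chr6:27146859-27147108 on the minus strand and HIST1H2BD at chr6:26157871-26158120 on the plus strand.
HIST1H2BG: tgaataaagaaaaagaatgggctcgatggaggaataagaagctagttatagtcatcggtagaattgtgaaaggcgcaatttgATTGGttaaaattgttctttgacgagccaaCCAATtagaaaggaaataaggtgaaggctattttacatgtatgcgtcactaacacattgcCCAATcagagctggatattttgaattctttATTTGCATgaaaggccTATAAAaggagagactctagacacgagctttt
HIST2H2BE: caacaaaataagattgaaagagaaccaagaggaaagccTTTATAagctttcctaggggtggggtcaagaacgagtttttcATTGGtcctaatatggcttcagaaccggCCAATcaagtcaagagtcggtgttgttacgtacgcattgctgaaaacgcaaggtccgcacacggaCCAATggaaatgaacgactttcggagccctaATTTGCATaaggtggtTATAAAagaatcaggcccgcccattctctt
HIST1H2BK: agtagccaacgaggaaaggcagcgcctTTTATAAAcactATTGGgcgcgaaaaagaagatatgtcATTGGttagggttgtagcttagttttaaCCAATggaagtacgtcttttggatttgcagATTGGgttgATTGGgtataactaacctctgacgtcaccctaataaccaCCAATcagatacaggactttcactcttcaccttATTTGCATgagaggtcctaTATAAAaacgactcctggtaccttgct
HIST1H2BD: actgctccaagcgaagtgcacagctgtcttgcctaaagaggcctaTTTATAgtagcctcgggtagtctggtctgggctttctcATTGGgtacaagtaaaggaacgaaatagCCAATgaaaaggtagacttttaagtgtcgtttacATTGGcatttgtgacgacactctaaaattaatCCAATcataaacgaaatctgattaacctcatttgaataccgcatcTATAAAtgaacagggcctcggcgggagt
Positions are counted from the RefSeq starts. The octamer starts 48 bases before the HIST1H2BG start and 46 bases before the HIST2H2BE and HIST1H2BK starts, in each case upstream of a TATA box. HIST1H2BD has a TATA box 28 bases before its start and no octamer in this window. HIST2H2AC has its own TATA box 29 bases before its start, which is the TTTATA 212 bases before the HIST2H2BE start on the other strand. HIST1H2AE has only the TATA box of the HIST1H2BG side, 206 bases before its own start. Promoters of 8 of the 9 genes were in the table, HIST1H4C being the one that was not matched. Where the table gives several starts for a gene, the window nearest to the annotated gene start was counted. The octamer was present in 5 of these 8 (HIST1H2AE, HIST1H2BG, HIST1H2BK, HIST2H2AC and HIST2H2BE), TATAAA in 7 (not HIST1H1C) and CCAAT in 8. A second HIST1H3D window, farther upstream, holds the octamer and no TATAAA. Of 35116 RefSeq promoters in windows of the same length, 1.63% held the octamer, 10.7% TATAAA and 32.0% CCAAT. A match is a description of letters and not of a bound site.

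Values are the authors' normalised counts per gene, whose sums per library lay between 1505826 and 1819640, and the read depth behind them is unknown. JMJD6, a lysyl hydroxylase also described as an arginine demethylase, had 26.6 and 16.6 normalised counts in siJMJD6 cells under MG132, against 167 and 129.8 in siNT MG132 cells, and 10.7 ± 3.58 in siJMJD6 heat shock libraries, against 224 ± 25.3 in siNT heat shock libraries (SD, n = 3 each). HSF1, the heat shock transcription factor, had 285 and 175 in HSF1 KO libraries, against 1687 and 1884 in siNT MG132 libraries. Epithelial markers (KRT8, KRT18, KRT19, EPCAM, CDH1 and KRT7) summed to 2143–2474 normalised counts in siJMJD6 MG132 libraries, against 1479–2026 in siNT MG132 libraries, and to 2656–2884 in siJMJD6 heat shock libraries, against 2317–2507 in siNT heat shock libraries, and KRT7 did not exceed 3.57 in the MG132 table. Blood and immune markers (7 genes) were represented only by CD14, at 5.25–8.54 in siJMJD6 MG132 libraries, against 0–1.04 in siNT MG132 libraries, and at 3.11 or less in the heat shock table. Fibroblast markers (6 genes, mainly COL1A2) summed to 37.4–57.8 in siJMJD6 MG132 libraries, against 112–254 in siNT MG132 libraries, and to 125–179 in siJMJD6 heat shock libraries, against 289–333 in siNT heat shock libraries. The part of these markers in the histone differences was not tested. In bulk RNA, fewer cells making a message and less of it per cell cannot be told apart.

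All 4 H2B genes were higher in siJMJD6 than in siNT cells, in both experiments. HIST1H2BK had 1189.5 and 677 normalised counts in siJMJD6 cells under MG132, against 243 and 168 in siNT MG132 cells. No siJMJD6 library was within 2 times the highest siNT library, and the log2 fold change, on the scale of log2(normalised count + 1) used for every fold change here, was 2.14 ± 0.32 (SE). After heat shock HIST1H2BK had 635, 688 and 726 normalised counts in heat-shocked siJMJD6 cells, against 262, 255 and 253 in heat-shocked siNT cells, a log2 fold change of 1.41 ± 0.098, again with no overlap. HIST1H2BD, whose 2 annotated transcripts differ in the presence of the stem-loop, had 135 and 112 normalised counts in siJMJD6 cells under MG132, against 11.4 and 8.43 in siNT MG132 cells, a log2 fold change of 3.52 ± 0.60. The heat shock experiment gave 144, 116 and 141 normalised counts in heat-shocked siJMJD6 cells, against 16.3, 12.8 and 19.8 in heat-shocked siNT cells, a log2 fold change of 2.97 ± 0.24. In both experiments the lowest siJMJD6 library held more than the highest siNT library by a wide margin.

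HIST2H2BE, the H2B gene with the longest annotated extension past its stem-loop, had 120.0 and 82.8 normalised counts in siJMJD6 cells under MG132, against 11.4 and 7.49 in siNT MG132 cells. The log2 fold change was 3.30 ± 0.67. After heat shock it had 134, 161 and 162 normalised counts in heat-shocked siJMJD6 cells, against 33.7, 31.2 and 38.4 in heat-shocked siNT cells, a log2 fold change of 2.11 ± 0.19, and the groups did not overlap in either experiment. HIST1H2BG was all but undetected outside siJMJD6 cells in the MG132 experiment, with 44.2 and 24.4 normalised counts in siJMJD6 cells under MG132, against 0.0253 and 0 in siNT MG132 cells, and no fold change is given against values at or near 0. After heat shock it had 8.40, 8.44 and 10.8 normalised counts in heat-shocked siJMJD6 cells, against 0, 1.33 and 2.68 in heat-shocked siNT cells and did not pass the filter on low values. All siJMJD6 libraries were above all siNT libraries there too.

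The 2 H2A genes differed in opposite directions. HIST1H2AE, the divergent partner of HIST1H2BG, had 164 and 58.6 normalised counts in siJMJD6 cells under MG132, against 6.22 and 3.71 in siNT MG132 cells, a log2 fold change of 4.09 ± 0.87. Its 2 siJMJD6 libraries differed from each other by more than the siNT libraries did, and both were above them. After heat shock HIST1H2AE had 38.9, 33.9 and 51.1 normalised counts in heat-shocked siJMJD6 cells, against 12.5, 3.43 and 5.20 in heat-shocked siNT cells, a log2 fold change of 2.54 ± 0.41. HIST2H2AC, the divergent partner of HIST2H2BE, had 5.37 and 0.852 normalised counts in siJMJD6 cells under MG132, against 11.3 and 11.3 in siNT MG132 cells, a log2 fold change of -1.84 ± 0.68. It was lower in both siJMJD6 libraries, at levels where the values of single libraries are imprecise. After heat shock HIST2H2AC had 6.39, 2.23 and 2.91 normalised counts in heat-shocked siJMJD6 cells, against 19.4, 15.6 and 7.21 in heat-shocked siNT cells, a log2 fold change of -1.63 ± 0.43, and its highest siJMJD6 library was just under its lowest siNT library. The pair on chromosome 6 was thus higher at both genes in siJMJD6 cells, and the pair on chromosome 1 was higher at its H2B gene and lower at its H2A gene.

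HIST1H3D, which encodes H3.1, had 125 and 49.3 normalised counts in siJMJD6 cells under MG132, against 2.10 and 2.76 in siNT MG132 cells, a log2 fold change of 4.54 ± 0.66. After heat shock it had 43.2, 46.6 and 52.0 normalised counts in heat-shocked siJMJD6 cells, against 18.3, 9.80 and 16.4 in heat-shocked siNT cells, a log2 fold change of 1.65 ± 0.28. The siJMJD6 libraries were above the siNT libraries in both experiments, with a smaller difference after heat shock, and whether the difference itself changed was not tested because the tables were normalised separately. HIST1H1C, which encodes the linker histone H1.2, had 154 and 125 normalised counts in siJMJD6 cells under MG132, against 62.9 and 34.9 in siNT MG132 cells, a log2 fold change of 1.54 ± 0.43. It had 188, 213 and 196 normalised counts in heat-shocked siJMJD6 cells, against 124, 97.7 and 107 in heat-shocked siNT cells, a log2 fold change of 0.86 ± 0.13. HIST1H1C had the smallest difference among the genes that were higher, and its groups did not overlap.

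HIST1H4C, an H4 gene, went the other way. It had 74.5 and 107 normalised counts in siJMJD6 cells under MG132, against 607 and 516 in siNT MG132 cells, a log2 fold change of -2.64 ± 0.36. After heat shock it had 157, 136 and 162 normalised counts in heat-shocked siJMJD6 cells, against 568, 484 and 304 in heat-shocked siNT cells, a log2 fold change of -1.53 ± 0.15. All siJMJD6 libraries were below all siNT libraries in both experiments.

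**Figure D2:**
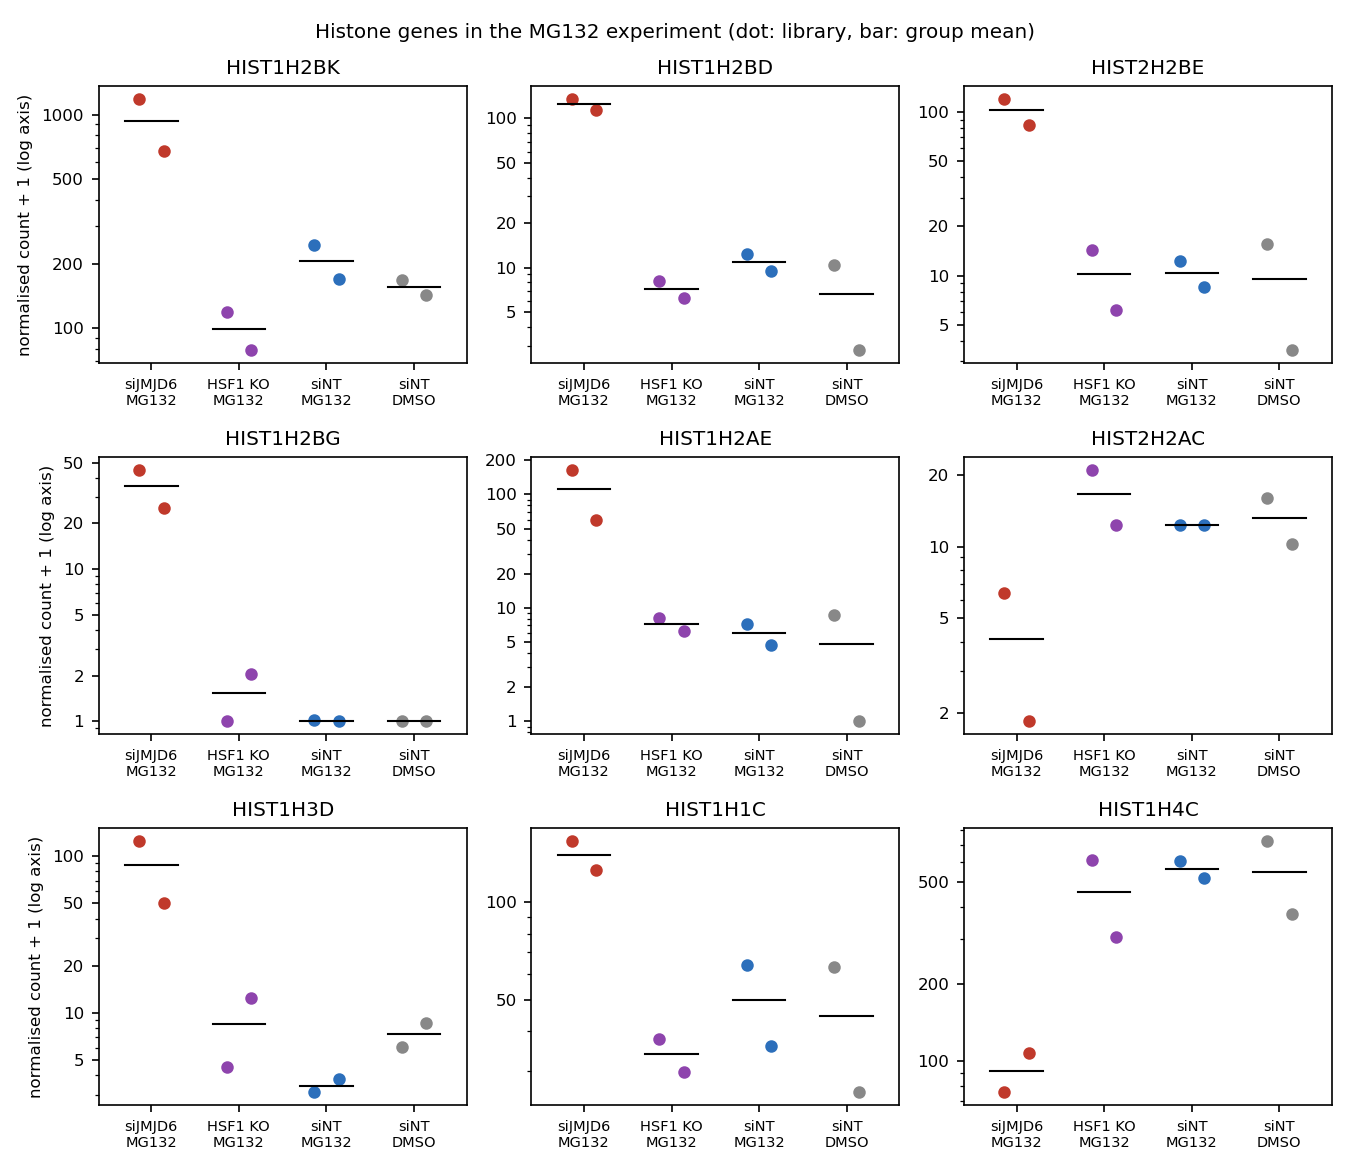
Normalised counts plus 1 of the 9 genes in each library of the MG132 experiment, on a log axis, with 2 libraries per group (dots) and the group mean (bar). The siJMJD6 libraries stand above the HSF1 KO, siNT MG132 and siNT DMSO libraries for 7 genes and below them for HIST2H2AC and HIST1H4C.

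**Figure D3:**
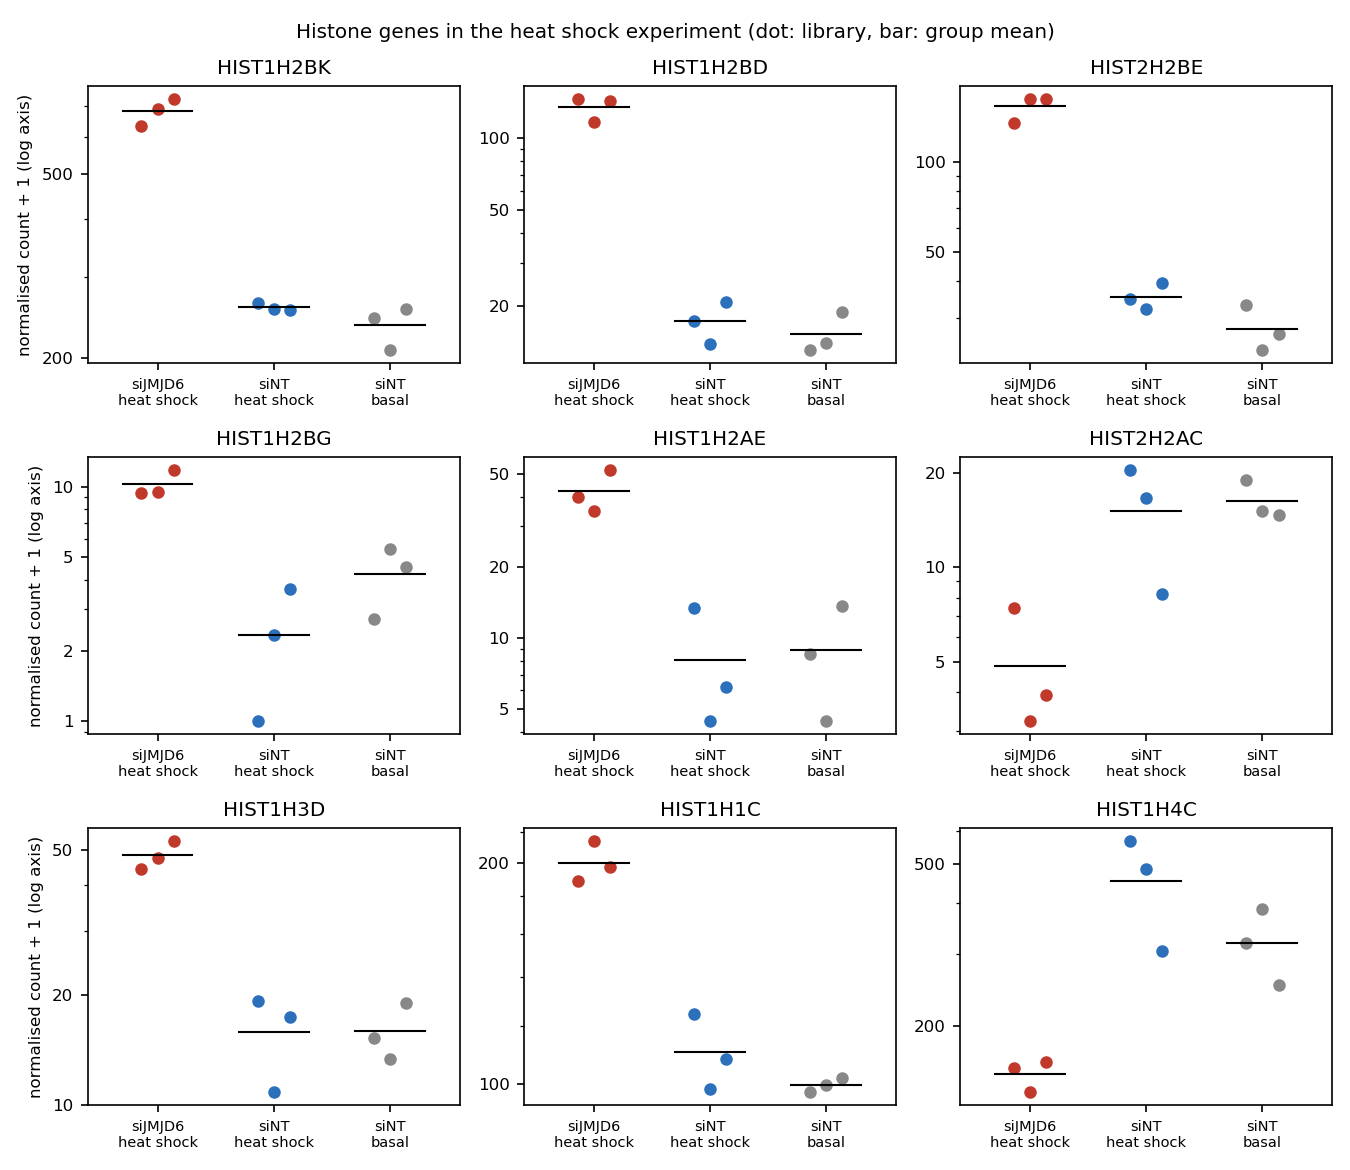
Normalised counts plus 1 of the 9 genes in each library of the heat shock experiment, on a log axis, with 3 libraries per group (dots) and the group mean (bar). The siJMJD6 heat shock libraries stand above the siNT heat shock and siNT basal libraries for 7 genes and below them for HIST2H2AC and HIST1H4C.

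Across all genes, 13.6% of 9778 tested genes passed an adjusted p of 0.05 between siJMJD6 and siNT MG132 cells in limma, and 8 of the 9 histone genes were among them (7 higher, 1 lower). After heat shock 46.4% of 9831 tested genes passed, and so did all 8 histone genes tested (6 higher, 2 lower). Nothing is read from these counts, since the genes were selected with these comparisons in view. In addition, HIST1H2AE, HIST1H2BD, HIST1H2BG and HIST1H3D passed the filter of the MG132 experiment, and HIST1H2AE that of the heat shock experiment, only through their siJMJD6 libraries. Passing in this way favours genes that are higher in siJMJD6 cells. Because the sources used here do not give the counting settings, genes with near-identical copies are uncertain. Of the 50-base stretches in the annotated transcripts, 74.1% of those of HIST1H2BK, 30.5% of those of HIST2H2AC, 8.11% of those of HIST2H2BE and 5.36% of those of HIST1H2BD also occur in other genes, mostly H2B or H2A genes. All of those of HIST1H3D occur in AL031777.3, an annotated gene that overlaps it on the same strand. HIST1H2BD overlaps LARP1P1 on the same strand and AL353759.1 on the opposite strand.

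In HSF1 KO cells under MG132, the 7 genes that were high in siJMJD6 cells had lower values than there, and HIST2H2AC and HIST1H4C had higher ones. HIST1H2BK had 118 and 77.4 normalised counts in HSF1 KO libraries, HIST1H2BD had 7.08 and 5.20 and HIST2H2BE had 13.4 and 5.20. These are all far below the siJMJD6 libraries. HIST1H2BG had 0 and 1.06, HIST1H2AE 7.09 and 5.20, HIST2H2AC 20.0 and 11.3 and HIST1H3D 3.48 and 11.4 normalised counts. HIST1H1C had 36.9 and 28.9 and HIST1H4C had 608 and 303. For each of the 9 genes, both HSF1 KO libraries lay on one side of both siJMJD6 libraries. The share of all genes for which this held was not computed, so nothing is read from it. The log2 fold changes of HSF1 KO against siJMJD6 ran from -4.13 ± 0.60 for HIST1H2BD to 2.25 ± 0.36 for HIST1H4C among the 8 genes for which a fold is given. All 9 passed an adjusted p of 0.05 in limma, against 20.8% of all genes. Nothing is read from this count, which shares its siJMJD6 libraries with the choice of the genes. Of the 9, 4 passed the filter only through those libraries.

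Between HSF1 KO and siNT MG132 cells, 0 of the 9 genes passed an adjusted p of 0.05 in limma, where 1.28% of all genes (125) passed and 1253 had an unadjusted p under 0.05. One histone gene, HIST1H2BK, had an unadjusted p under 0.05. It had 118 and 77.4 normalised counts in HSF1 KO libraries, against 243 and 168 in siNT MG132 libraries, a log2 fold change of -1.07 ± 0.32 (adjusted p = 0.152), with no overlap. HIST1H3D had a log2 fold change of 1.12 ± 0.66 (adjusted p = 0.512), HIST1H1C of -0.51 ± 0.43 (adjusted p = 0.677) and HIST1H4C of -0.38 ± 0.36 (adjusted p = 0.725). The adjusted p of all 9 lay between 0.152 and 0.968. The median log2 fold change of the 9 genes was -0.12, and that of all genes 0.014. This comparison uses the same siNT MG132 libraries as siJMJD6 against siNT. With 2 libraries in each group the standard errors were 0.32 to 1.06, and differences of that size were not detectable. Larger ones could be missed too, since the -1.07 ± 0.32 of HIST1H2BK did not pass.

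MG132 itself, set against DMSO in siNT cells, passed the threshold for 0 of the 9 genes in limma, and none had an unadjusted p under 0.05. Of all genes, 0.266% (26) passed, and 553 had an unadjusted p under 0.05. HIST1H2BK had 243 and 168 normalised counts in siNT MG132 libraries, against 166 and 142 in siNT DMSO libraries, a log2 fold change of 0.40 ± 0.32 (adjusted p = 0.956). HIST1H4C had 607 and 516 in siNT MG132 libraries, against 726 and 373 in siNT DMSO libraries, a log2 fold change of 0.11 ± 0.36 (adjusted p = 0.993). The first had groups that did not overlap and the second groups that did. HIST1H3D had 2.10 and 2.76 in siNT MG132 libraries, against 5.09 and 7.56 in siNT DMSO libraries, a log2 fold change of -1.08 ± 0.66 (adjusted p = 0.912). HIST1H2BG was listed at 0 in both siNT DMSO libraries. The median log2 fold change was 0.25 for the 9 genes and -0.0049 for all genes.

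Heat shock against basal, in siNT cells, passed the threshold for 0 of the 8 histone genes tested in limma, where 4.09% of all genes (402) passed and 1482 had an unadjusted p under 0.05. HIST1H4C, 1 of the 8, had an unadjusted p under 0.05. It had 568, 484 and 304 normalised counts in siNT heat shock libraries, against 318, 386 and 251 in siNT basal libraries, a log2 fold change of 0.48 ± 0.15 (adjusted p = 0.0629). The groups overlapped, and the result depended on single libraries. With 1 library left out the log2 fold change ran from 0.29 to 0.74. Without siNT heat shock replicate 3 it was 0.74 (adjusted p = 0.000303), and without siNT basal replicate 2 it was 0.63 (adjusted p = 0.0199). Over all alternatives the adjusted p in limma reached 0.451, so no difference is read from these fits. HIST2H2BE had 33.7, 31.2 and 38.4 in siNT heat shock libraries, against 32.1, 22.4 and 25.6 in siNT basal libraries, a log2 fold change of 0.37 ± 0.19 (adjusted p = 0.358). HIST1H2BK had 262, 255 and 253 in siNT heat shock libraries, against 244, 207 and 254 in siNT basal libraries, a log2 fold change of 0.13 ± 0.098 (adjusted p = 0.574). Both sets of groups overlapped. The median log2 fold change of the 8 genes was 0.14, and that of all genes -0.0020.

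**Figure D4:**
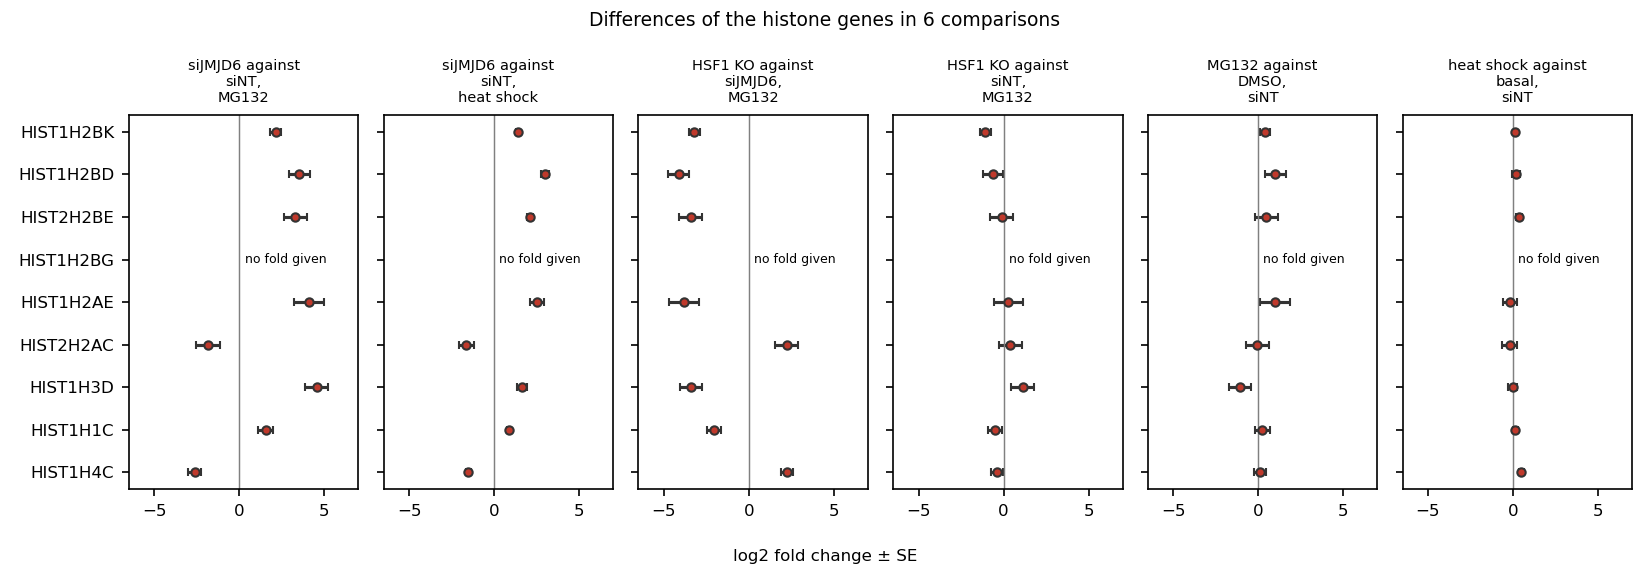
Log2 fold changes of the 9 genes with standard errors in the 6 comparisons, on the scale of log2(normalised count + 1). The 2 siJMJD6 comparisons place 6 genes with a fold above 0 and HIST2H2AC and HIST1H4C below 0, and the MG132 and heat shock comparisons in siNT cells lie nearer to 0. HIST1H2BG has no fold given.

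The other genes with a HIST symbol were near the limit of detection. The MG132 table had 20 and that of heat shock had 15, none reached the filter on low values, and the highest value in any library was 9.43 and 6.90 normalised counts. Their sum was 52.7 and 45.2 in siJMJD6 MG132 libraries, against 21.7 and 30.6 in siNT MG132 libraries. In the heat shock table it was 23.2–23.6 in siJMJD6 heat shock libraries, against 13.2–21.3 in siNT heat shock libraries. The siNT basal libraries had 26.6, 22.7 and 14.7, a range that holds the siJMJD6 sums. The mean over siJMJD6 libraries was above that over siNT libraries with the same treatment for 11 of 20 genes under MG132 and 9 of 15 after heat shock. No statement on single genes is made at these levels.

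Genes listed as replication-independent histone variants were measured by the same libraries. Their messages are polyadenylated throughout the cell cycle, except that of H2AFX, which can also end in a stem-loop. Of 10 tested under MG132, 2 were higher and 1 lower in siJMJD6 cells at an adjusted p of 0.05 in limma, where 13.6% of all genes passed. H1F0, the linker histone H1.0 of differentiated and resting cells, had 486 and 575 normalised counts in siJMJD6 MG132 libraries, against 50.5 and 76.5 in siNT MG132 libraries, a log2 fold change of 3.07 ± 0.30 (adjusted p = 8.91e-05). H2AFJ, the variant H2A.J, had 2074 and 1306 in siJMJD6 MG132 libraries, against 221 and 389 in siNT MG132 libraries, a log2 fold change of 2.48 ± 0.33 (adjusted p = 0.000596). For each of these genes both siJMJD6 MG132 libraries lay above both siNT MG132 libraries. This list and the gene lists that follow were chosen with earlier results of these data known. Their calls in comparisons with siJMJD6 cells are therefore descriptions and are not read as tests. H3F3B, 1 of the genes for H3.3, fell to 785 and 748 in siJMJD6 MG132 libraries, against 1872 and 1738 in siNT MG132 libraries, a log2 fold change of -1.23 ± 0.21 (adjusted p = 0.00269). The median log2 fold change of the 10 was -0.24, so the list did not move one way.

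After heat shock, 3 of 10 variant genes were higher and 4 lower in siJMJD6 cells, where 46.4% of all genes passed. H2AFX, a variant that marks DNA breaks when phosphorylated and whose message can end in a stem-loop or a poly(A) tail, had 219.6, 296 and 309 normalised counts in siJMJD6 heat shock libraries, against 78.1, 73.5 and 72.3 in siNT heat shock libraries, a log2 fold change of 1.85 ± 0.15 (adjusted p = 1.04e-12). Under MG132 its siJMJD6 libraries disagreed, at 55.4 and 354, against 39.2 and 38.7 in siNT MG132 libraries (adjusted p = 0.0618). H1F0 had a log2 fold change of 1.30 ± 0.10 (adjusted p = 9.91e-13) and H2AFJ of 1.19 ± 0.12 (adjusted p = 2.82e-10). In HSF1 KO against siJMJD6 cells, H1F0 (log2 fold change -2.55 ± 0.30) and H2AFJ (-2.56 ± 0.33) were lower and H3F3B (1.54 ± 0.21) was higher, with adjusted p of 0.000162, 0.000272 and 0.000384. No variant gene passed in HSF1 KO against siNT, in MG132 against DMSO or in heat shock against basal. Of all genes 1.28%, 0.266% and 4.09% passed there, so nothing is read from this absence in a list of 10.

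**Figure D5:**
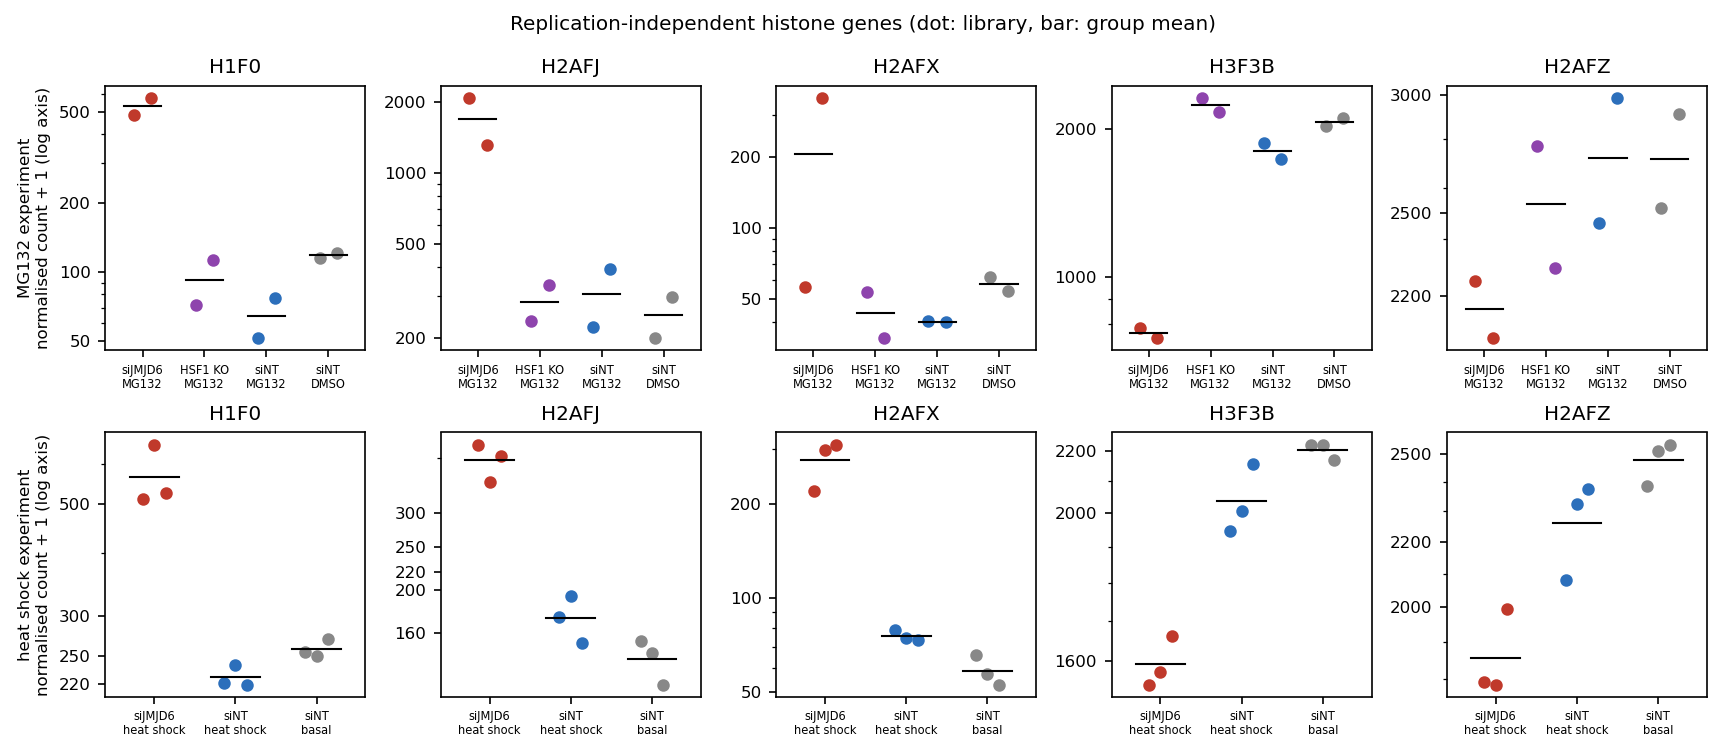
Normalised counts plus 1 of 5 genes listed as replication-independent histone variants in each library, on log axes. The MG132 experiment is above and the heat shock experiment below (dots for libraries, bars for group means). H1F0 and H2AFJ are higher in all siJMJD6 libraries, H3F3B is lower in all of them, and the H2AFX values of the siJMJD6 MG132 libraries, 55.4 and 354, lie far apart.

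Of the genes for histone 3′ end processing, 0 of 7 passed between siJMJD6 and siNT MG132 cells in limma, where 13.6% of all genes passed. One had an unadjusted p under 0.05: ZNF473, a U7 snRNP partner, with a log2 fold change of -1.04 ± 0.48 (adjusted p = 0.172). After heat shock ZNF473 alone of the 7 passed, with 18.1, 17.1 and 19.6 normalised counts in siJMJD6 heat shock libraries, against 54.2, 55.0 and 45.6 in siNT heat shock libraries, a log2 fold change of -1.45 ± 0.23 (adjusted p = 3.1e-06). Of all genes 46.4% passed there, so 1 of 7 is not above the share of all genes. SLBP, the stem-loop binding protein, had 83.0 and 141 in siJMJD6 MG132 libraries, against 180.2 and 133 in siNT MG132 libraries. It had 168, 162 and 154 in siJMJD6 heat shock libraries, against 119.8, 131 and 181 in siNT heat shock libraries, and its groups overlapped in both experiments. In HSF1 KO against siJMJD6 cells only ZNF473 passed, with a log2 fold change of 2.10 ± 0.48 (adjusted p = 0.00873), where 20.8% of all genes passed.

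Of the cleavage and polyadenylation genes, 0 rose and 4 of 21 fell in siJMJD6 MG132 cells, and 2 rose and 8 fell of 21 after heat shock. Of all genes, 13.6% passed under MG132 and 46.4% after heat shock, so the counts of this list are near those shares. CPSF2, a cleavage factor subunit shared with the histone complex, passed in both, with log2 fold changes of -0.90 ± 0.27 (adjusted p = 0.0422) under MG132 and -1.37 ± 0.16 (adjusted p = 8.51e-09) after heat shock. Under MG132, SRRT, a cap-associated factor, had -0.89 ± 0.25 (adjusted p = 0.036) and FIP1L1, a polyadenylation factor, -1.05 ± 0.30 (adjusted p = 0.0377). After heat shock CPSF4 had -1.25 ± 0.15 and PAPOLA, a poly(A) polymerase, -0.56 ± 0.087. In HSF1 KO against siJMJD6 cells 3 of 21 were higher and none lower, where 20.8% of all genes passed. The list medians were -0.12 under MG132 and -0.06 after heat shock, beside -0.050 and -0.034 for all genes.

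Histone chaperones, which hand histones to DNA, had 0 higher and 5 lower of 17 in siJMJD6 MG132 cells, where 13.6% of all genes passed. ANP32E, a chaperone of H2A.Z, had a log2 fold change of -1.69 ± 0.30 (adjusted p = 0.00396) and SUPT16H, a FACT subunit, of -1.08 ± 0.23 (adjusted p = 0.00974). CHAF1B, of the replication-coupled CAF-1 complex, averaged 0.454 ± 0.571 normalised counts in siJMJD6 MG132 cells and 12.9 ± 2.13 in siNT MG132 cells (SD, n = 2 each; adjusted p = 0.00489 in limma). After heat shock, where 46.4% of all genes passed, 6 were higher and 6 lower of 17, among them UBN1 of the H3.3 chaperone HIRA complex (1.33 ± 0.094), SSRP1, the other FACT subunit (-0.91 ± 0.087), and ANP32E (-0.91 ± 0.10). In HSF1 KO against siJMJD6 cells 6 were higher and none lower, where 20.8% of all genes passed.

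S phase genes mark the period in which replication-dependent histone genes are transcribed. In siJMJD6 cells under MG132, 13 of 25 fell and 0 rose (13.6% of all genes passed), with a list median of -0.94 beside -0.050 for all genes. RRM1, a ribonucleotide reductase subunit, had a log2 fold change of -1.47 ± 0.28 (adjusted p = 0.00579), POLD1, a DNA polymerase, of -1.39 ± 0.29 (adjusted p = 0.00888) and MCM7, a helicase subunit, of -1.28 ± 0.27 (adjusted p = 0.00929). After heat shock 12 of 25 fell and 4 rose (46.4% of all genes passed), with a list median of -0.44 beside -0.034. TYMS, thymidylate synthase, had -1.63 ± 0.11, RRM1 -1.39 ± 0.14 and DUT, a dUTPase, -1.06 ± 0.13. In HSF1 KO against siJMJD6 cells 15 were higher and none lower, where 20.8% of all genes passed. HSF1 KO against siNT and MG132 against DMSO gave none of 25. Of all genes 1.28% and 0.266% passed in these comparisons, so nothing is read from the absence of calls. Heat shock against basal gave 2 lower (FEN1, -0.50 ± 0.12, and MCM4, -0.45 ± 0.12), where 4.09% of all genes passed.

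Genes linked to cell cycle arrest went both ways. In siJMJD6 cells under MG132, 2 of 13 rose, CDKN2B (1.62 ± 0.30, adjusted p = 0.00456) and CDKN1A (1.56 ± 0.39, adjusted p = 0.0206), both inhibitors of cyclin-dependent kinases. This is near the 13.6% of all genes that passed. After heat shock 3 of 13 rose and 4 fell, near the 46.4% of all genes, including CDKN2D (1.65 ± 0.24), CDKN2A (-0.80 ± 0.10) and TXNIP (-0.59 ± 0.094). Under MG132, 2 of 13 were higher in HSF1 KO against siNT cells, TXNIP (3.45 ± 0.30) and BTG1 (1.75 ± 0.24), where 1.28% of all genes passed. In HSF1 KO against siJMJD6 cells 2 were higher and 3 lower (20.8% of all genes passed). MG132 against DMSO gave 1 higher and 1 lower (GADD45B, 1.95 ± 0.30, and TXNIP, -2.79 ± 0.30), where 0.266% of all genes passed. Heat shock against basal gave 3 higher and none lower, with CDKN2C at 1.29 ± 0.15, where 4.09% of all genes passed. Whether the S phase and arrest genes account for any part of the histone differences was not tested.

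The profile of each gene over libraries was compared with the mean of the other histone genes, as a description. Over the 8 libraries of the MG132 experiment Pearson's r was 0.79 to 0.98 for 7 genes, -0.72 for HIST2H2AC and -0.86 for HIST1H4C. Over the 9 libraries of the heat shock experiment it was 0.92 to 0.96 for 6 genes, -0.85 for HIST2H2AC and -0.84 for HIST1H4C. These values follow the gap between siJMJD6 and the other groups, and the libraries share that gap. Among 1499 other genes whose mean reached 50 and whose SD reached 0.5 in log2 value, profiles among the most like the mean of the histone genes in the MG132 table were those of ENDOG (r = 0.995), CCDC85B (0.982), FBXL18 (0.982) and S100A13 (0.981). Among 743 such genes in the heat shock table they were NEU1 (r = 0.990), RHBDD2 (0.986), FAM46C (0.983), SNAR-G1 (0.980) and FTL (0.977). No gene was in both lists.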

How the data were processed

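Messenger RNA of 17 PC3M libraries was prepared with QuantSeq FWD, per the labels' protocols. The signal values are normalised counts per gene that the authors deposited as 1 table per experiment. Reads were handled with FastQC 0.11.2, STAR 2.6.0 and HTSeq on build hg38, per the submitters' processing notes; the sources used here do not give the annotation, the strand setting or how the counts were filtered and scaled. The deposited signal values are not whole numbers, so no count model was used, and the depth is unknown.

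limma 3.58.1 (R 4.3.3) was applied to log2(normalised count + 1), with a mean-variance trend in the moderated variances and all groups of a table in 1 fit. Genes with at least 10 normalised counts in at least 2 libraries (MG132 table) or 3 (heat shock table) were tested. P-values were adjusted by Benjamini-Hochberg over all tested genes of a comparison, with a call at an adjusted p under 0.05. The tables were normalised separately and no test crosses them. The fit was tested on simulated data.

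The histone genes, and the lists of processing factors, variants, chaperones, S phase and arrest genes, were chosen with earlier results of these data known. From each list up to 3 called genes with the smallest adjusted p are named, or, where none was called, at most the 1 with the smallest p. Transcripts were read from GENCODE 29 and promoters from RefSeq (GRCh38.p14). Alternatives were pseudocounts of 0.5 and 10, no filter, a filter counted without siJMJD6 libraries, other scalings (TMM, quantile), a fit of only the compared groups, a replicate block, and leaving out each library. One gene of the likeness list of the MG132 table is not reported here.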

Additional observations from a re-analysis of the deposited data

How the results depend on the processing

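Between siJMJD6 and siNT (both experiments) and between HSF1 KO and siJMJD6, none of the log2 fold changes of the 9 genes changed sign in the alternatives run. The compared groups did not overlap for these genes, so leaving out a library could not reverse a sign. Nothing is read from the absence of sign changes there. In the other 3 comparisons, where no gene was called, 8 of 140 (MG132 against DMSO), 5 of 131 (HSF1 KO against siNT) and 5 of 135 (heat shock against basal) did. The cause of each change below was not tested, beyond the fewer genes or libraries that an alternative leaves. With no filter, 5 histone genes were called between siJMJD6 and siNT under MG132, and with the filter counted without siJMJD6 libraries (chosen after seeing the data) 4 of the 5 still tested, against 8 as reported. That filter gave 5 between HSF1 KO and siJMJD6. Leaving out 1 library gave 6 to 8 and 5 to 9 in these 2 comparisons, with the lowest value of 5 without HSF1 KO replicate 1 or 2, 8 throughout for siJMJD6 against siNT after heat shock, and 0 for MG132 against DMSO and HSF1 KO against siNT. A library left alone in its group is then assumed to vary like the others. HIST1H1C lost its call between siJMJD6 and siNT under MG132 in 5 of these fits, at log2 fold changes of 1.13 to 1.96. HIST1H2AE lost its call there without siJMJD6 replicate 1 (log2 fold change 3.35) or siNT MG132 replicate 2 (3.78). HIST1H2BG lost its call without siJMJD6 replicate 1. HIST1H2AE and HIST1H2BG passed the filter only through siJMJD6 libraries, so their calls are not read as tests. Between heat shock and basal, the count was 1 (HIST1H4C) with a pseudocount of 10 (adjusted p = 0.0352) and 0 to 1 with a library left out. A pseudocount of 10 moved the median log2 fold change of the 9 genes from 3.30 to 2.11 between siJMJD6 and siNT under MG132. Between HSF1 KO and siJMJD6 it moved the median from -3.41 to -2.40. With the filter counted without siJMJD6 libraries, the medians of the 5 genes still tested were 1.54 and -2.05.

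Shared replicate numbers were not used as pairs in the main fits. With group means removed, same-numbered libraries correlated at 0.0447 to 0.368 over 2 numbers in the MG132 experiment. In the heat shock experiment they correlated at -0.0348 to 0.0943. Pairing in the MG132 experiment is therefore not excluded. The replicate block, in a fit without HSF1 KO libraries, called 1811 genes between siJMJD6 and siNT under MG132, against 1327 in the main fit. The replicate block gave 1 histone gene called between heat shock and basal (HIST1H4C, adjusted p = 0.0216) and the same counts of histone genes in the other 3 comparisons that allow it. HSF1 KO letters give no pairs.

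Of all genes, MG132 against DMSO called 6 with no filter, 41 with the replicate block and 10 to 31 with a library left out (lowest without siNT MG132 replicate 1). siJMJD6 against siNT under MG132 called 675 with no filter, 687 with only these groups in the fit and 351 to 1268 with a library left out (lowest without siNT MG132 replicate 1). HSF1 KO against siNT called 29 with no filter, 213 with only these groups and 43 to 185 with a library left out, and HSF1 KO against siJMJD6 654 to 2019 (lowest without HSF1 KO replicate 1).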
